A study of Mus musculus with 56 samples.

Results

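The liver meets drugs, dietary chemicals and its own steroids with a small set of ligand-activated factors and the enzymes they act through. PXR (gene Nr1i2) and CAR (gene Nr1i3) are nuclear receptors that bind DNA together with RXR, and AHR (gene Ahr) is a ligand-activated factor that binds DNA with its partner ARNT (gene Arnt). Cytochromes P450 in the endoplasmic reticulum cannot work alone: NADPH-cytochrome P450 reductase (gene Por) hands them electrons and cytochrome b5 (gene Cyb5a) can supply some of these. The carboxylesterase gene Ces2a and the retinaldehyde dehydrogenase gene Aldh1a1 encode enzymes of ester hydrolysis and of aldehyde oxidation. These 8 genes were picked by name from a gene table of 25415 genes, and all 8 were measured in every library. They and the gene lists below were chosen with earlier results of these data known. Counts set beside the share of all genes are therefore a description.

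The values come from RNA sequencing of 56 livers of female C57BL/6J mice, 9 weeks old, kept under 12 h of light per day. For 7 days the animals had eaten during the light phase only, which is daytime-restricted feeding (DRF), or during the dark phase only, which is nighttime-restricted feeding (NRF) and the reference. With zeitgeber time (ZT) counted from lights on, 4 animals per regimen were sampled at each of ZT 0, 4, 8, 12, 16, 20 and 24. All animals carried the same strain background with no added allele or drug, and the comparisons ask how the time of feeding altered the daily course of each gene.

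Levels are given as scaled counts: whole counts were worked back from the deposited table and divided by a factor for each library, so that a library sums to between 888243 and 1115428. Differences between regimens are DRF minus NRF on the scale log2(scaled count + 1), and adjusted p-values are limma values with Benjamini-Hochberg adjustment over all 25415 genes, called below 0.05. A gene of low level has its change understated on that scale, but every library held a scaled count above 21 for each of the 8 genes. Correlations between replicates, across genes, lay between 0.965 and 0.990. All 5 of 5 hepatocyte markers were measured and their summed scaled count had a median of 119260 under DRF and 121478 under NRF. The corresponding medians for the 5 Kupffer cell markers were 642 and 646, for the 5 sinusoidal endothelial markers 377 and 373, for the 5 stellate cell markers 685 and 696, for the 5 cholangiocyte markers 29.8 and 27.1 and for the 5 lymphocyte markers 19.7 and 22.4, and no marker of any list was at 0 in all libraries. Differences between regimens at 1 or more times were called in 4 of 5 endothelial, 3 of 5 cholangiocyte and 0 of 5 lymphocyte markers. They were called in 2 of 5 markers each for Kupffer cells, stellate cells and hepatocytes, where 42.1% of all genes were called. In each regimen 3 of 5 endothelial and 3 of 5 hepatocyte markers were rhythmic (all genes 34.8% under DRF and 43.1% under NRF). Their part in the results was not tested. In whole liver, fewer cells of a type and less RNA per cell cannot be told apart.

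The upstream sequences of Nr1i3 and Por are shown because these were the members whose rhythms moved by more than 8 h with both regimens rhythmic. The capitals mark the E-box CACGTG in Nr1i3, and GCGTG, the core of the element that AHR and ARNT bind, or its reverse complement CACGC in Por.
Nr1i3: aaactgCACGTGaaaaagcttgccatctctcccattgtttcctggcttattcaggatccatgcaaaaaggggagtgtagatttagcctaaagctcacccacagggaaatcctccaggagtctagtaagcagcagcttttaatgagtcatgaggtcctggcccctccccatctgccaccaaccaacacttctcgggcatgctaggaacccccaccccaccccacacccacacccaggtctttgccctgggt
Por: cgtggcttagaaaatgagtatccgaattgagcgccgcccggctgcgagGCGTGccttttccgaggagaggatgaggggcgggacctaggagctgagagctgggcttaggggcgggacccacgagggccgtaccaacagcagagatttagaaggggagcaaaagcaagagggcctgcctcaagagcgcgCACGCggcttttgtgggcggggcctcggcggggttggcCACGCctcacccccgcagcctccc
Both are the 250 bases before the start site in RefSeq (GRCm38.p6, plus strand), chr1:171213720-171213969 for Nr1i3 and chr5:135688895-135689144 for Por. The E-box of Nr1i3 began 244 bases before the start, and the 3 matches in Por began 202, 62 and 24 bases before it. On both strands, CACGTG was in 6.02% and GCGTG in 28.2% of 32851 promoter windows of this length. TTATGTAA or TTACGTAA, the letters searched for the D-box that DBP, TEF, HLF and NFIL3 bind, stood in 0.931% of all windows and in none of the windows of the 6 members with an entry (Ahr and Cyb5a had none). Arnt held GCGTG 29 bases before its start. A match is a description of letters and not a site.

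Across the 8 genes, 7 differed between regimens at 1 or more times, where 42.1% of all genes did (limma F over the 7 contrasts). Ces2a was the exception. A 24-h rhythm passed the test in 6 members under DRF (all genes 34.8%) and in 7 under NRF (43.1%), and 5 passed in both (23.2%): Nr1i3, Por, Cyb5a, Ces2a and Aldh1a1. The rhythm itself differed between regimens in 7 members, against 38.5% of all genes. By time, 3 members were called at ZT0, all higher under DRF (of all genes 7.98% were called higher and 8.08% lower). At ZT4, 6 were called, again all higher (10.8% and 9.43%), and at ZT8 3, all higher (5.73% and 7.22%). At ZT12, 2 were higher and 3 lower under DRF (7.01% and 8.11%). At ZT16 1 was higher and 2 lower (8.76% and 6.24%), at ZT20 1 was higher and 1 lower (7.71% and 5.99%), and at ZT24 3 were higher (7.11% and 6.94%). The 4 livers of each regimen did not overlap for 4, 5, 2, 5, 4, 3 and 3 members at ZT0 to ZT24 in turn, where 19.5%, 22.3%, 18.0%, 16.2%, 15.9%, 17.5% and 16.8% of all genes did not. The median difference over the 8 members was 0.44 at ZT4 and -0.14 at ZT16, beside -0.0032 and -0.00028 over all genes.

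**Figure D1:**
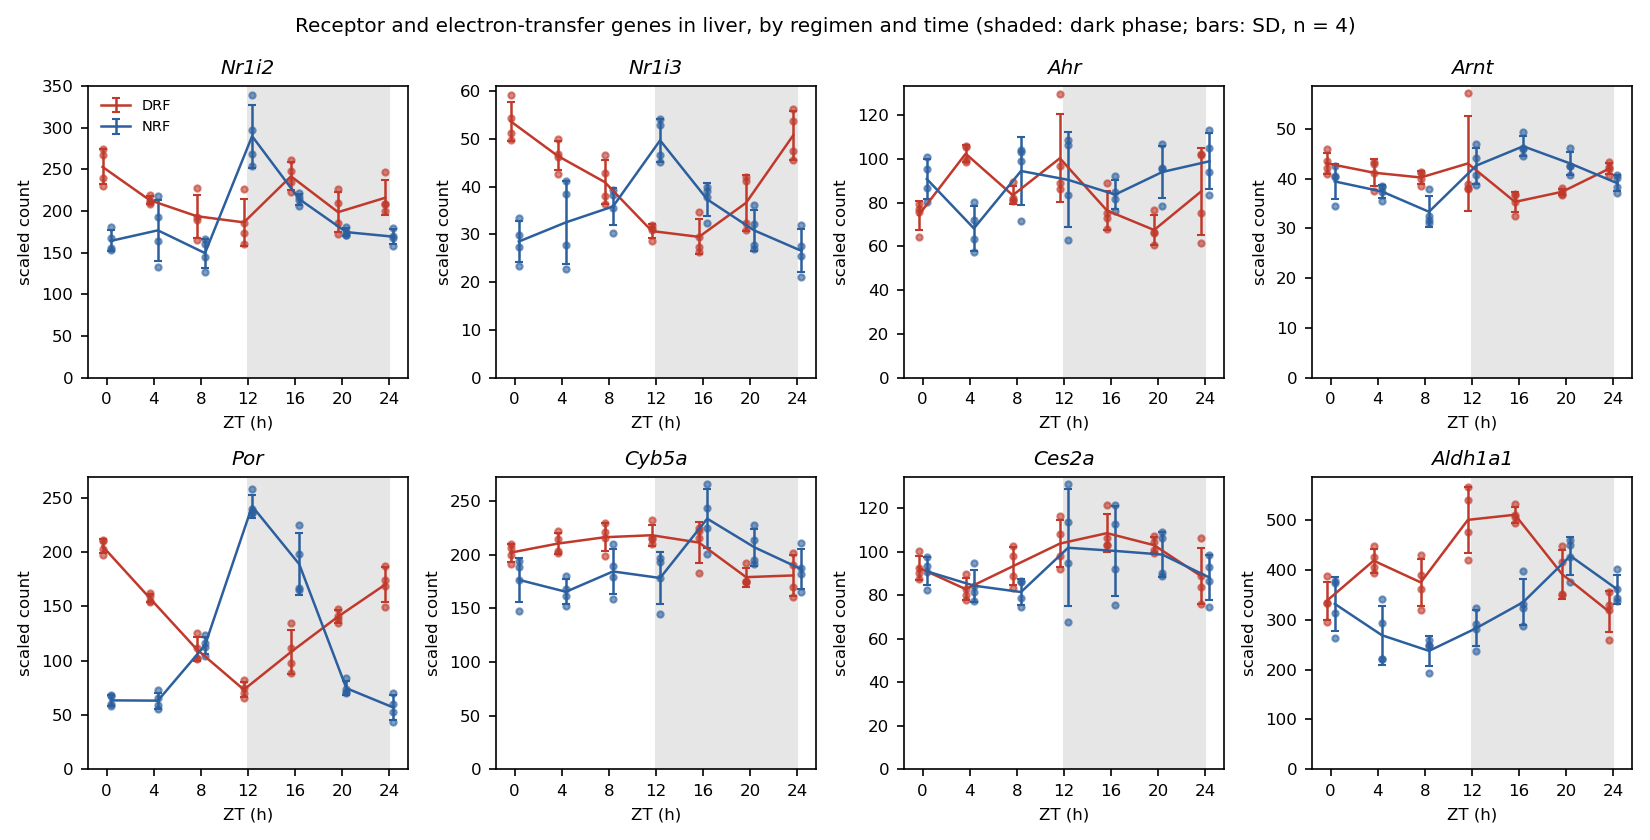
Scaled counts (vertical axes, from 0) of the 8 genes against zeitgeber time in hours, red for DRF and blue for NRF. Points are single livers, lines join the means of 4 livers and bars are SD; the grey area is the dark phase. Por runs in opposite directions in the regimens, from a DRF mean of 205 at ZT0 to 73.2 at ZT12 and from an NRF mean of 63.3 at ZT0 to 242 at ZT12, while the curves of Ces2a lie on each other.

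Por encodes the flavoprotein that passes electrons from NADPH to every microsomal cytochrome P450 (chr5:135670033-135735326, plus strand), and it showed the widest swing of the 8 genes. At ZT0, the 4 livers under DRF held 212, 197, 210 and 203 scaled counts and those under NRF 67.4, 68.1, 58.1 and 59.8. At ZT12, the order was turned, with 70.5, 81.9, 74.9 and 65.4 under DRF against 240, 258, 236 and 236 under NRF. The groups did not overlap at 6 of the 7 times. Por was called higher under DRF at ZT0, ZT4, ZT20 and ZT24 and lower at ZT12 and ZT16, and at ZT8 the means of 110 ± 11.1 and 114 ± 7.99 (SD, n = 4) differed by less than the spread (adjusted p = 0.899, limma). The log2 difference was 1.68 ± 0.11 (SE) at ZT0, a 3.24-fold higher mean under DRF (adjusted p = 4.23e-16, limma), and -1.72 ± 0.11 at ZT12, a 3.31-fold higher mean under NRF (adjusted p = 2.46e-16, limma). The fitted rhythm peaked at ZT 0.386 ± 0.375 h in DRF livers and at 13 ± 0.218 h in NRF livers, which lie 11.3 ± 0.434 h apart. Its log2 amplitude was 0.60 ± 0.05 under DRF and 1.02 ± 0.05 under NRF, a difference of -0.42 ± 0.07. Its rhythm-adjusted mean was higher under DRF by 0.19 ± 0.06 (adjusted p = 0.0253, limma).

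Nr1i3 encodes CAR, a receptor that sits in the cytoplasm until activated and then drives Cyp2b genes (chr1:171213970-171220701, plus strand). At ZT0 its 4 livers under DRF held 49.9, 59.2, 51.3 and 54.5 scaled counts and those under NRF 29.8, 27.4, 23.3 and 33.4. At ZT12 the values were 30.9, 32.0, 28.5 and 31.3 under DRF and 54.1, 45.2, 52.9 and 46.6 under NRF. Every liver of the higher regimen thus lay above every liver of the other at both times, in opposite directions. The log2 differences were 0.90 ± 0.13 at ZT0 (adjusted p = 1.62e-06, limma), 0.54 ± 0.13 at ZT4 (adjusted p = 0.00219, limma), -0.67 ± 0.13 at ZT12 (adjusted p = 0.000206, limma) and 0.92 ± 0.13 at ZT24 (adjusted p = 1.27e-06, limma). The difference at ZT4 was not called with the libraries of that time alone (adjusted p = 0.111, limma). The fitted peaks, 2.24 ± 0.484 h for DRF and 12.0 ± 0.603 h for NRF, lay 9.80 ± 0.774 h apart, with amplitudes of 0.42 ± 0.05 and 0.35 ± 0.05. The rhythm-adjusted mean differed by 0.15 ± 0.05, which did not pass over all genes (adjusted p = 0.0638, limma) and passed when only genes with a mean of at least 1 were tested (adjusted p = 0.0451, limma). Of the exon bases of Nr1i3, 74.9% (3304 of 4414) are shared with Tomm40l on the opposite strand. Whether counting used strand is not given in the sources used here, and without it reads of the pair could not be told apart. Tomm40l itself was listed at a mean of 1.48 ± 0.326 under DRF and 1.53 ± 0.355 under NRF (SD, n = 28 livers), with no called rhythm in either regimen (adjusted p = 0.493 and 0.670, limma) and no called difference (adjusted p = 0.795, limma F).

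Nr1i2 encodes PXR, the receptor for many drugs and bile acids that drives Cyp3a genes (chr16:38248323-38294824, minus strand). Its highest group was ZT0 under DRF, with 240, 268, 231 and 274 scaled counts, and ZT12 under NRF, with 254, 269, 339 and 297. At the same times the other regimen held 180, 168, 155 and 153 (NRF, ZT0) and 173, 226, 186 and 160 (DRF, ZT12). Neither pair of groups overlapped. The log2 difference was 0.62 ± 0.11 at ZT0 (adjusted p = 2.99e-05, limma) and -0.64 ± 0.11 at ZT12 (adjusted p = 2.17e-05, limma). Smaller differences in favour of DRF were called at ZT4 (0.29, adjusted p = 0.0494, limma), ZT8 (0.37, adjusted p = 0.0153, limma) and ZT24 (0.35, adjusted p = 0.0235, limma). The call at ZT4 was lost in 42 of 56 fits that each left out 1 library, and those at ZT8 and ZT24 were lost in 2 and 3 of them. With the libraries of each time alone, ZT4 (adjusted p = 0.252, limma) and ZT8 (0.105) were not called, and with the values as deposited ZT4 (0.0866), ZT8 (0.126) and ZT24 (0.190) were not. A 24-h rhythm was called under NRF, with a peak at 14.1 ± 0.815 h and an amplitude of 0.30 ± 0.06 (adjusted p = 0.000216, limma F), and not under DRF (amplitude 0.12 ± 0.06, adjusted p = 0.269, limma F). With the values as deposited, the rhythm under DRF was called (adjusted p = 0.0274, limma F). Under DRF the group means had a second high value of 242 at ZT16. The rhythms differed by the test of the difference (adjusted p = 0.00098, limma F).

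**Figure D2:**
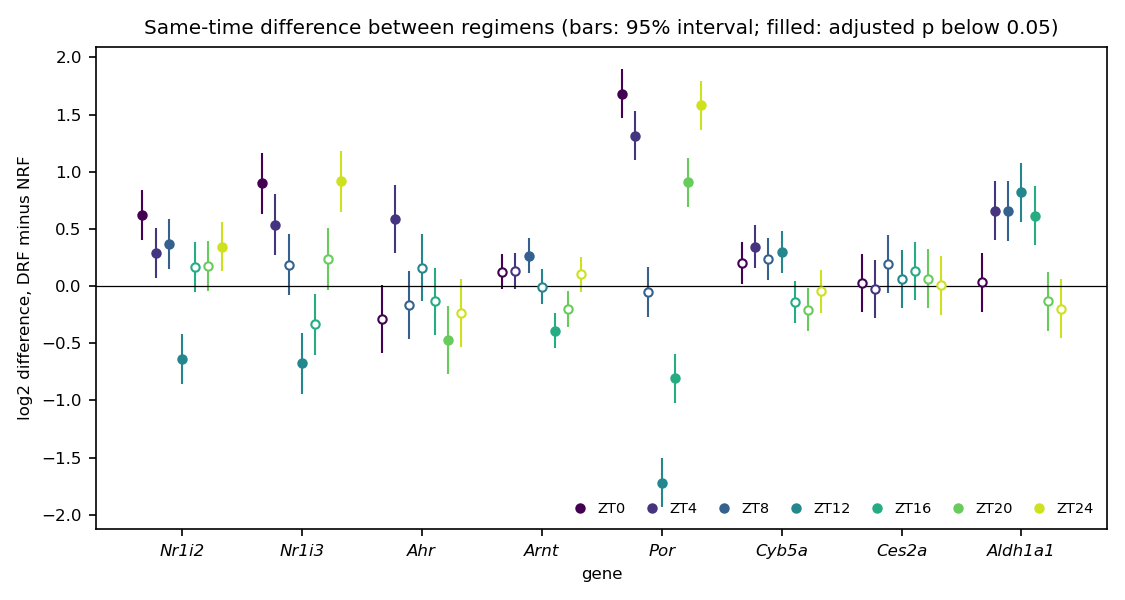
Difference DRF minus NRF on the log2 scale (vertical axis) for the 8 genes (horizontal axis) at the 7 times, coloured by time from ZT0 (dark) to ZT24 (yellow). Points are estimates from 4 livers per group, bars are 95% intervals and filled points have an adjusted p below 0.05; Por spans 1.68 at ZT0 to -1.72 at ZT12, and all 7 points of Ces2a are open.

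Ahr encodes the receptor for dioxins and for indoles from the diet and gut (chr12:35497974-35535038, minus strand). At ZT4 its livers held 106, 99.5, 98.4 and 105 scaled counts under DRF and 63.2, 71.9, 80.4 and 57.3 under NRF. At ZT20 they held 60.8, 66.0, 66.4 and 76.6 under DRF and 78.2, 95.6, 107 and 95.3 under NRF. These were the times called, with a log2 difference of 0.59 ± 0.15 at ZT4 (adjusted p = 0.00239, limma) and of -0.47 ± 0.15 at ZT20 (adjusted p = 0.0239, limma). The call at ZT20 was lost when any of 5 single libraries of that time was left out. It was also lost with the values as deposited (adjusted p = 0.113, limma). Livers of 1 group differed widely at other times, for example 62.9 to 109 under NRF at ZT12. The rhythm under DRF, with a peak at 7.54 ± 1.05 h and an amplitude of 0.23 ± 0.07, was called (adjusted p = 0.0219, limma F), and that under NRF was not (adjusted p = 0.579, limma F). The test of the difference gave an adjusted p of 0.0251 (limma F). Without DRF ZT20 replicate 1 the rhythm under DRF had an adjusted p of 0.0518 (limma F), and without the ZT0 libraries the rhythm under DRF and the difference had 0.0563 and 0.0577. With the values as deposited, neither the rhythm under DRF (adjusted p = 0.646) nor the rhythm difference (0.108, limma F) was called. Of the exon bases of Ahr, 2.06% are shared with Gm48236 on the opposite strand.

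Arnt encodes the partner that AHR needs to bind DNA, and which also pairs with hypoxia-inducible factors (chr3:95434388-95497240, plus strand). Its group means lay in a narrow band, between 35.3 and 43.1 under DRF and between 33.4 and 46.5 under NRF. At ZT16 its livers held 36.8, 35.2, 32.5 and 36.9 scaled counts under DRF and 45.9, 44.6, 49.4 and 46.2 under NRF, a log2 difference of -0.39 ± 0.08 (adjusted p = 0.000274, limma). At ZT8 they held 41.3, 40.0, 38.5 and 41.1 under DRF and 32.4, 31.2, 38.0 and 31.8 under NRF, a difference of 0.27 ± 0.08 (adjusted p = 0.0132, limma). Groups did not overlap at either time. Without NRF ZT8 replicate 2 the difference at ZT8 was not called, nor was it with the values as deposited (adjusted p = 0.168, limma). Under NRF the rhythm peaked at 17.4 ± 0.604 h with an amplitude of 0.20 ± 0.03 (adjusted p = 3.45e-05, limma F). Under DRF, with a fitted peak at 4.55 ± 1.2 h and an amplitude of 0.10 ± 0.03, the adjusted p was 0.0557 (limma F). One library, DRF ZT12 replicate 3, held 57.3 where the others of its group held 38.9, 38.0 and 38.2, and without it the rhythm under DRF was called (adjusted p = 0.000375, limma F). The rhythms of the regimens differed (adjusted p = 1.04e-05, limma F).

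Cyb5a encodes microsomal cytochrome b5, which can pass the second electron to cytochromes P450 and serves fatty acid desaturases (chr18:84838704-84879871, plus strand). At ZT4 its livers held 215, 223, 202 and 204 scaled counts under DRF and 168, 180, 162 and 152 under NRF, a difference of 0.35 ± 0.09 on the log2 scale (adjusted p = 0.00446, limma). At ZT12 they held 215, 232, 210 and 216 under DRF and 178, 197, 145 and 194 under NRF, a difference of 0.30 ± 0.09 (adjusted p = 0.0194, limma). DRF was the higher regimen at both times with no overlap. The call at ZT12 was lost without DRF ZT12 replicate 2 or NRF ZT12 replicate 3, and with the libraries of that time alone (adjusted p = 0.133, limma). The rhythm peaked at 9.61 ± 1.13 h for DRF and at 17 ± 0.699 h for NRF, 7.42 ± 1.33 h apart, with small amplitudes of 0.13 ± 0.04 and 0.20 ± 0.04. Without the ZT24 libraries the rhythm under DRF was not called (adjusted p = 0.0740, limma F). With the values as deposited, neither that rhythm (adjusted p = 0.261) nor the rhythm difference (0.0611, limma F) was called. The rhythm-adjusted mean differed by 0.11 ± 0.04, which was not called (adjusted p = 0.0851, limma). Its counts came out whole with a length of 2143 bases and not with the annotated 3104, so its level rests on a length read from the values.

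Ces2a encodes a carboxylesterase of the endoplasmic reticulum (chr8:104734003-104741634, plus strand), and no difference between regimens was called at any time. At ZT4 its livers held 90, 80.3, 77.9 and 83.1 scaled counts under DRF and 77.4, 94.6, 81.5 and 84.1 under NRF. At ZT16 they held 103, 103, 121 and 106 under DRF and 92.0, 113, 75.3 and 121 under NRF. The groups overlapped at all 7 times. The log2 differences ranged from -0.03 at ZT4 (95% interval -0.28 to 0.23) to 0.19 at ZT8 (95% interval -0.06 to 0.45), and the any-time adjusted p was 0.866 (limma F). A rhythm was called in both regimens, with a peak at 15.8 ± 0.930 h under DRF (amplitude 0.18 ± 0.05, adjusted p = 0.00538, limma F) and at 16.9 ± 1.11 h under NRF (amplitude 0.15 ± 0.05, adjusted p = 0.0313, limma F). The peaks lay 1.18 ± 1.45 h apart and the test of the difference gave an adjusted p of 0.737 (limma F). The rhythm under NRF was not called by the exact rank test (adjusted p = 0.260) and was lost when any of 6 single libraries was left out. Ces2a belongs to a cluster of similar genes, and how reads shared between them were counted is not given in the sources used here.

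Aldh1a1 encodes a cytosolic enzyme that oxidises retinaldehyde to retinoic acid and other aldehydes to acids (chr19:20492715-20643465, plus strand). At ZT12 its livers held 567, 540, 476 and 421 scaled counts under DRF and 236, 282, 291 and 324 under NRF. At ZT8 they held 390, 319, 361 and 431 under DRF and 248, 249, 260 and 193 under NRF. From ZT4 to ZT16 every liver under DRF lay above every liver under NRF, with log2 differences of 0.66, 0.66, 0.82 and 0.62 (SE 0.13 each, adjusted p between 5.57e-06 at ZT12 and 0.000568 at ZT16, limma). With the values as deposited, the difference at ZT16 was not called (adjusted p = 0.0673, limma). At ZT0, ZT20 and ZT24 the groups overlapped, with differences of 0.03, -0.13 and -0.20 that were not called. The peak lay at 13.4 ± 0.761 h under DRF and at 19.8 ± 0.516 h under NRF, 6.44 ± 0.919 h apart, with amplitudes of 0.28 ± 0.05 and 0.39 ± 0.06. Its rhythm-adjusted mean was higher under DRF by 0.41 ± 0.05 (95% interval 0.31 to 0.52, adjusted p = 2.01e-07, limma), the largest such difference of the 8 members. Aldh1a7, a close relative whose shared reads may have been split between both genes, also had a higher rhythm-adjusted mean under DRF, by 0.25 ± 0.06 (adjusted p = 0.00672, limma). With Por, Aldh1a1 made 2 members with a called difference of the rhythm-adjusted mean (all genes 6.80%), both higher under DRF, where 4.16% of all genes were called higher and 2.64% lower.

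**Figure D3:**
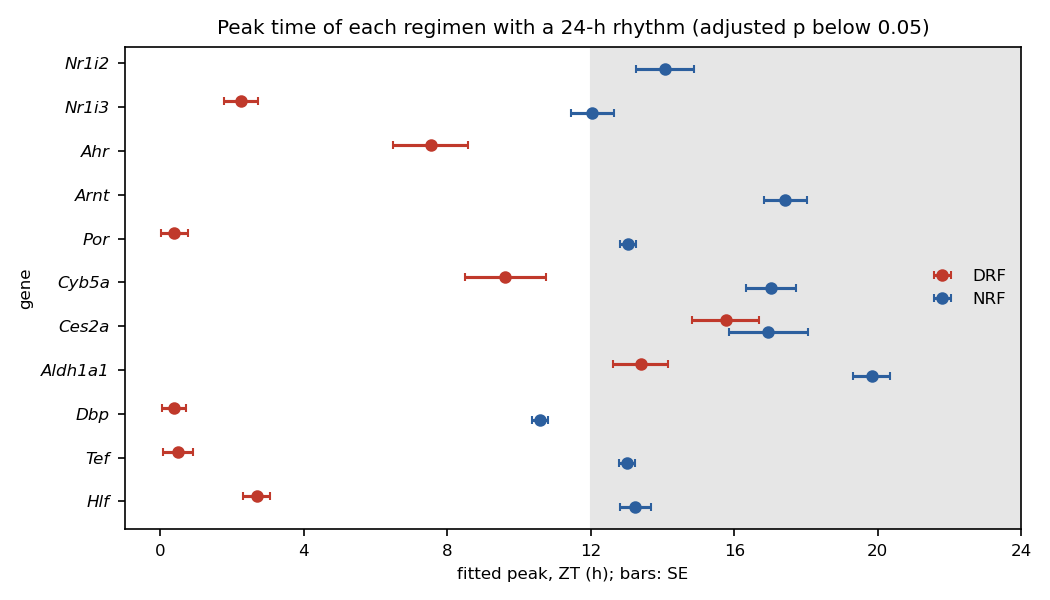
Fitted peak time in hours (horizontal axis) for each gene (vertical axis), red for DRF and blue for NRF, drawn only where the 24-h rhythm had an adjusted p below 0.05; bars are SE and the grey area is the dark phase. The peaks of Por lie at 0.386 and 13 h, those of Ces2a at 15.8 and 16.9 h, and the PAR bZIP genes Dbp, Tef and Hlf are added at the foot for comparison.

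Among the 5 members rhythmic in both regimens, the peaks of 2 (Por and Nr1i3) lay 8 to 12 h apart and those of 1 (Ces2a) within 4 h. Over the 5888 genes rhythmic in both, 50.9% lay 8 to 12 h apart and 24.4% within 4 h. DBP, TEF and HLF are PAR bZIP factors of the clock output and NFIL3 acts on the same sites, and all 4 of their genes moved by 8 to 12 h: under DRF and NRF Dbp peaked at 0.379 and 10.6 h, Tef at 0.502 and 13 h, Hlf at 2.69 and 13.2 h, and Nfil3 at 11.7 and 22.3 h. These values stand beside those of Por and Nr1i3 as a description.

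To compare the rhythms by hours from the start of the feeding phase, the times of NRF were counted from ZT12. Thus 0 h is the start of the day under DRF and of the night under NRF. The test takes peak time and amplitude together, so a difference of amplitude alone can pass it. After this alignment the rhythm still differed in 5 of 8 members, against 34.0% of all genes: Nr1i2 (adjusted p = 0.0484), Por (3.50e-05), Cyb5a (0.0108), Ces2a (0.00048) and Aldh1a1 (7.28e-05, all limma F). The aligned peak of Por under DRF came 0.653 ± 0.434 h earlier than that under NRF, and its amplitude, DRF minus NRF, differed by -0.42 ± 0.07. The aligned levels of Por differed most at 16 h, where DRF was higher by 0.76 ± 0.11 (adjusted p = 2.45e-06, limma). At that hour 17.1% of all genes were called. The aligned peaks of Aldh1a1 lay 5.56 ± 0.919 h and those of Cyb5a 4.58 ± 1.33 h apart, both later under DRF. Those of Ces2a lay 10.8 ± 1.45 h apart, which is so near 12 h that earlier and later cannot be told apart. Nr1i3 peaked 2.20 ± 0.774 h later under DRF on this scale and did not pass (adjusted p = 0.0541, limma F). It passed in 12 of 56 fits that left out 1 library, with only genes of a mean of at least 1 (adjusted p = 0.0392) and without the ZT0 libraries (0.0492). Ahr and Arnt did not pass either (adjusted p = 0.471 and 0.248, limma F), which does not show that their aligned rhythms were alike. Arnt passed without DRF ZT12 replicate 3 (adjusted p = 0.0333, limma F) and with the values as deposited (0.00145). The call for Nr1i2 was lost in 32 of 56 fits that left out 1 library.

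ZT0 and ZT24 are the same time of day and served as a control comparison. None of the 8 members differed between them under DRF (all genes 3.23%) or NRF (7.96%) by limma. With the values as deposited, 6 members differed between these times. The smallest unadjusted p-values were 0.0136 for Por under DRF, which fell by 0.27 on the log2 scale from ZT0 to ZT24, and 0.0403 for Nr1i2 under DRF, which fell by 0.23. These were the 2 with an unadjusted p below 0.05 among 16 tests. Across genes, the deviation of each library from the gene means was also correlated with exon length (Spearman). Under DRF this correlation ran from -0.196 to -0.0634 at ZT0 and from 0.112 to 0.249 at ZT24. Under NRF it ran from -0.321 to 0.0317 at ZT0 and from 0.0553 to 0.262 at ZT24. Other times differed too. Under DRF it lay between -0.296 and -0.149 at ZT4 and ZT8, and between 0.0792 and 0.207 at ZT12 and ZT20. Under NRF it ran from -0.188 to -0.0589 at ZT8 and from 0.0440 to 0.217 at ZT16. DRF ZT16 and NRF ZT4, ZT12 and ZT20 held both signs. With this correlation as a covariate, 101 member values kept their side of the threshold, 2 lost the call and 1 gained one. The cause of this difference between libraries was not tested.

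Levels of different genes were compared per 1000 bases of exon, as means over all 56 libraries. Cyb5a was highest at 91.8 scaled counts per 1000 bases (67.5 to 124 over libraries), a level that rests on the length of 2143 bases read from the values, followed by Nr1i2 at 79.5 (49.8 to 133), Aldh1a1 at 73.8 (39.1 to 115), Ces2a at 39.9 (28.8 to 55.6), Por at 31.4 (10.9 to 64.2), Ahr at 14 (9.29 to 21.0), Nr1i3 at 8.58 (4.78 to 13.4) and Arnt at 5.03 (3.90 to 7.16). With the annotated length of Cyb5a its mean scaled count was 2217 under DRF and 2033 under NRF in place of 203 and 190. The ranges of all neighbours in this order overlapped. The highest library of Arnt lay below the lowest of Ahr, its partner, and the lowest library of Nr1i2 (PXR) lay above the highest of Nr1i3 (CAR). The level of Nr1i3 depends on how reads of the 74.9% of its exon bases shared with Tomm40l were counted. Its part in the gap to Nr1i2 was not tested.

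Over the 14 group means of log2 level, Por was most like Nr1i3 among the other members (Pearson r = 0.88) and next like Nr1i2 (r = 0.77). Aldh1a1 went with Ces2a (r = 0.63) and Cyb5a (r = 0.62). The points of these correlations share libraries and serve as a description. Among 13756 genes with a mean scaled count of at least 1, the patterns closest to Por were those of BC024386, Stk35 and Uox (r = 0.95 each). Those closest to Nr1i3 were Dclre1a (r = 0.97), Acot3 (0.96) and Acot4 (0.96), and those closest to Nr1i2 were Osbpl3 (0.87), Foxo1 (0.86) and Tnfrsf1b (0.85). For Ahr they were Nudt7 (0.84), Hpgd (0.78) and Ssrp1 (0.78), for Arnt Rps6kb1 (0.90), Tsku (0.87) and Ttc19 (0.87), and for Cyb5a Bccip (0.85), Sgpp1 (0.85) and Tsc22d3 (0.84). For Ces2a they were Uqcrh (0.91), Pgrmc1 (0.90) and Cemip2 (0.89), and for Aldh1a1 Pgk1 (0.95), Slc25a3 (0.94) and Bhmt2 (0.94).

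The 18 listed target genes of CAR and PXR, which include cytochromes P450, a bilirubin conjugator and transporters, were all measured. Of these, 16 differed between regimens at 1 or more times, against 42.1% of all genes. The rhythm-adjusted mean was called higher under DRF in 12 and lower in 0, with 6 not called (all genes 4.16% higher and 2.64% lower), and the median difference was 0.26, beside -0.0017 over all genes. Cyp3a25, a liver P450 of the Cyp3a family, was higher by 0.55 ± 0.06 (adjusted p = 3.44e-09, limma). Alas1, the first enzyme of heme synthesis, peaked at 3.68 h in DRF livers and 14.3 h in NRF livers, and the bile salt and conjugate exporter Abcc2 at 22.8 and 11.5 h. Neither of these had a called difference of the mean (0.15 ± 0.20 and -0.02 ± 0.04). Cyp2b10 (1.19 ± 0.16) and Sult2a1 (1.18 ± 0.26), named after their values were seen, had the largest differences of the list. Cyp2b, Cyp2c and Cyp3a genes have near-identical copies, so that their single values are uncertain.

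**Figure D4:**
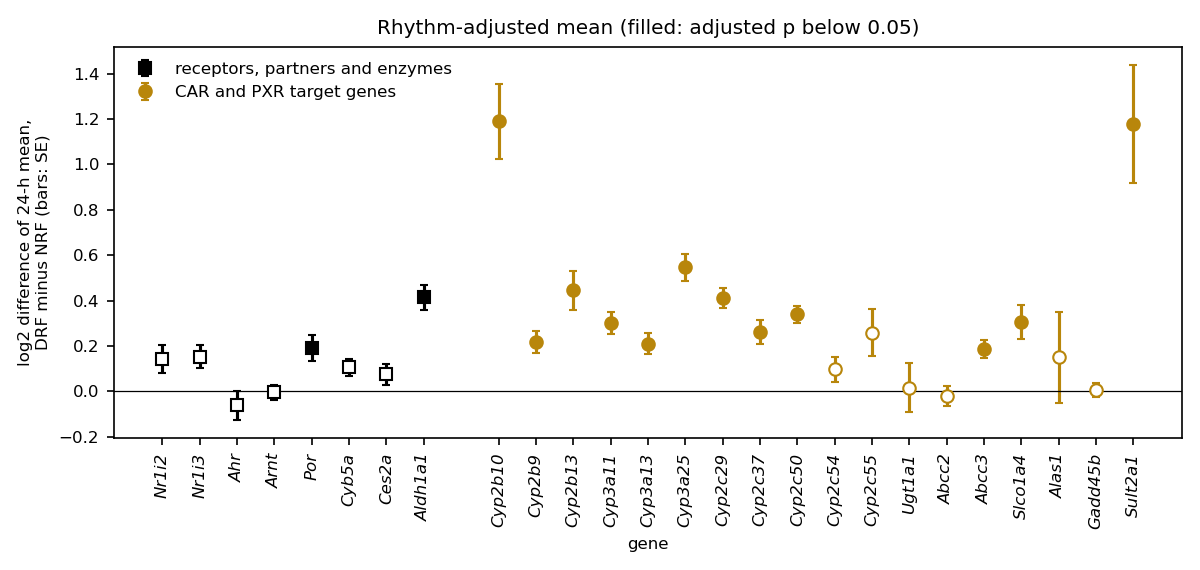
Difference of the rhythm-adjusted 24-h mean, DRF minus NRF on the log2 scale (vertical axis), for the 8 genes (black squares) and the 18 target genes of CAR and PXR (gold circles). Bars are SE and filled symbols have an adjusted p below 0.05; Por (0.19) and Aldh1a1 (0.41) are filled among the squares, and 12 of the 18 circles are filled, all above 0.

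Of 8 listed AHR target genes 7 were measured (Ahrr was not analysed here), and 2 differed at 1 or more times, where 42.1% of all genes did: the dioxin-inducible Cyp1a1 and the quinone reductase Nqo1. Cyp1a1 was highest at ZT8 under DRF (6.73 ± 1.87, SD, n = 4) and at ZT16 under NRF (18.9 ± 20.3), and its peaks lay 8.49 ± 1.17 h apart. Nqo1 was the 1 gene of this list with a called difference of the mean (all genes 6.80%), higher under DRF by 0.31 ± 0.07 (adjusted p = 0.00121, limma). Cyp1a2, the abundant liver P450 of this group, did not pass at any time (adjusted p = 0.321, limma F). The median difference of the mean over the 7 genes was 0.10.

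Partners, chaperones and coregulators of the receptors were measured for 19 of 20 listed genes, of which 12 differed at 1 or more times (all genes 42.1%) and 2 had a called difference of the mean, both higher under DRF (all genes 4.16% higher, median over the 19 genes 0.04). Rxra, the partner of both nuclear receptors, had peaks of 18.9 h (DRF) and 11.8 h (NRF), 7.16 ± 0.783 h apart. Hsp90ab1, the chaperone that holds AHR in the cytoplasm, peaked at 7.31 and 18.7 h, 11.4 ± 1.02 h apart. The coactivator gene Ppargc1a peaked at 21.0 and 11 h, and its mean was higher under DRF by 0.34 ± 0.07 (adjusted p = 0.00145, limma).

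Electron carriers related to POR and cytochrome b5 were measured for 12 of 13 listed genes. Of these 8 differed at 1 or more times (all genes 42.1%) and 3 had a higher mean under DRF, with 0 lower (all genes 4.16% and 2.64%, median of the list 0.06). Cyb5b, the cytochrome b5 of the outer mitochondrial membrane, had peaks of 11.6 h (DRF) and 22.3 h (NRF), 10.7 ± 0.636 h apart, where Cyb5a peaked at 9.61 and 17 h. The methionine synthase reductase gene Mtrr peaked at 6.81 and 16.9 h, and Fdxr, the mitochondrial counterpart of POR, was rhythmic under NRF (peak 8.16 h) and not called under DRF (adjusted p = 0.101, limma F).

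Of 18 listed carboxylesterases other than Ces2a, 15 were measured and 11 differed at 1 or more times (all genes 42.1%). The mean was called higher under DRF in 2 and lower in 4 (all genes 4.16% and 2.64%, median of the list -0.05). Ces3b (-0.53 ± 0.07) and Ces3a (-0.39 ± 0.06) were lower under DRF, and Ces1d, the liver triacylglycerol hydrolase (used with its annotated length, which could not be checked), had peaks of 9.47 h (DRF) and 17.2 h (NRF). Of the 19 other aldehyde dehydrogenases, all measured, 11 differed at 1 or more times (all genes 42.1%), and the mean was called higher under DRF in 10 and lower in 0 (all genes 4.16% and 2.64%, median of the list 0.08). Aldh3a2, the fatty aldehyde dehydrogenase, was higher by 0.33 ± 0.05, Aldh5a1, which oxidises succinate semialdehyde, by 0.29 ± 0.03, and Aldh16a1 by 0.19 ± 0.04.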

How the data were processed

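The authors deposited a gene table with values named TPM that grow with the logarithm of counts, and these are handled here as a score. Per the submitters' processing notes, CASAVA 1.8 and featureCounts 1.5.0-p3 were used with mm10 (GRCm38.p6). The aligner, and whether counting was stranded, are not given in the sources used here, and the labels name both rRNA depletion with strand-specific libraries and polyA RNA. A deposited value times exon length (GENCODE, GRCm38) followed a·ln(1 + f·k), with library factors a and f and whole counts k. In held-out genes, between 93.5% and 99.1% of values, by count class, lay within 0.05 of a whole number, where 10% would by chance. Of 25415 genes, 23116 were used with the annotated length, 2207 with a length searched on the values and 92 very abundant genes, among them hepatocyte markers, with the annotated length unchecked. The 8 members came out whole in 56 of 56 libraries, except Aldh1a1 in 41 (length 4934, annotated 4937). Scaled counts are f·k. 1 unit stood for 304 to 723 recovered counts, which totalled 324 to 731 M per library (M, 1000000), above the study's sequencing depth, so they are not called reads. Precision is therefore given by the spread between animals.

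Of 24268 Ensembl identifiers, 24247 matched the annotation. The filter (mean deposited value of at least 0.1) removed 0 genes. limma 3.58.1 (R 4.3.3) was applied to log2(scaled count + 1), with 1 mean per group for same-time contrasts and with a mean, cosine and sine of 24 h per regimen for rhythms. The design named these tests for scaled counts; MetaCycle was not used. Peaks and amplitudes are from the cosine fit, and the SE of a shift combines both peaks' SE. Alternatives were an exact Kendall rank test against 12 templates 2 h apart, the deposited values, another pseudocount (0.1), other filters and scalings, a length covariate, a replicate block, and leaving out libraries; annotated lengths for Cyb5a and Aldh1a1 were added after the data were seen. The steps were tested on simulated data. Named genes were the 8 members, the 3 genes closest to each in pattern, and up to 3 genes per list with the smallest p over the 7 contrasts; Tomm40l, Hlf, Aldh1a7, Cyp2b10 and Sult2a1 were named outside that rule, after their values were seen. Members and lists were chosen with earlier results of these data known. Replicate numbers mark different animals; deviations of same-numbered libraries had a mean correlation of 0.00423, so they were not paired. The labels give no batch. 0 table columns were unassigned. The transcript and circular RNA tables were not used here.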

Additional observations from a re-analysis of the deposited data

Results flagged for a closer look

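The difference between regimens depended on the time of day in 7 members, by the limma F test of the time-by-regimen terms adjusted over all genes (38.0% of all genes passed). The adjusted p-values were 8.16e-24 for Por, 8.78e-10 for Nr1i3, 2.19e-07 for Nr1i2, 1.63e-06 for Aldh1a1, 2.50e-05 for Arnt, 0.000669 for Cyb5a and 0.000935 for Ahr. Ces2a did not pass (adjusted p = 0.972).

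In 5 of 112 groups of 4 livers, 1 liver stood apart from the other 3 by Dixon's test, where chance gives about 1 in 20 groups. These were Ahr in DRF ZT8 replicate 3 (89.4 scaled counts, next 82.0), Ahr in NRF ZT8 replicate 3 (71.4, next 99.2), Arnt in DRF ZT12 replicate 3 (57.3, next 38.9), Cyb5a in DRF ZT20 replicate 2 (192.4, next 175.5) and Ces2a in DRF ZT16 replicate 3 (121.5, next 106.3).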

How the results depend on the processing

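No called difference turned direction under the alternatives run; 8 differences that were not called changed sign under 1 or more of them, all for Arnt, Ces2a, Cyb5a or Aldh1a1. Of 1088 values of single members under the alternatives, 1055 kept their side of the threshold, 24 lost the call and 9 gained one. Of these, 104 came from the fit with no filter, which could not change because the filter removed 0 genes. Another 104 came from the annotated lengths, which altered the values of Cyb5a and Aldh1a1 only. For the deposited values, 92 kept their side, 10 lost the call and 2 gained one. With the values as deposited, the members called were 1 at ZT8 (3 in the report), 1 at ZT20 (2) and 6 between ZT0 and ZT24 (0). On those values the rhythm under DRF was lost for Ahr (adjusted p = 0.646) and Cyb5a (0.261) and gained for Nr1i2 (0.0274, limma F). The rhythm differences of Ahr (adjusted p = 0.108) and Cyb5a (0.0611, limma F) were also lost. Leaving out each library in turn, 126 of 5824 member values changed side, and the count at ZT20 ranged from 1 to 3. The exact rank test called Arnt under DRF (adjusted p = 0.00366) and did not call Ces2a under NRF (0.260). The replicate block moved the count of rhythm differences after alignment from 5 to 4, through Nr1i2 (adjusted p = 0.0544, limma F), and changed no other call; only 17 of 56 libraries were closest to their own number. The annotated lengths raised the mean of Cyb5a to 2217 under DRF and 2033 under NRF and changed no call. The cause of these changes was not tested. The deposited values do not give the reads behind a gene, so the spread between 4 livers sets the precision of each value.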
